A study of Mus musculus with 18 samples.

Results

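The genes described here are 36 genes of glycolysis and of the response to low oxygen, listed by their known function, with earlier results of these data known, out of 23951 genes in a table of sorted mouse pancreatic cells. All 36 were found in the table, 35 under the listed symbol and Pkm2 under its current symbol Pkm, and all 36 were among the 13369 genes that reached 1 FPKM (the authors' transcript level, scaled to transcript length and to the fragments mapped in the library) in at least 3 libraries. The table holds 18 RNA-seq libraries in 5 groups. Normal pancreatic fibroblasts (NPF, 3 libraries) came from mice with Elas-tTA/tetO-Cre and Rosa26+/EYFP. Cancer-associated fibroblasts (WT_CAF, 5 libraries) and tumor cells (WT_tumor, 4 libraries) came from tumors of mice that also carried Trp53lox/lox, and KO_CAF (3 libraries) and KO_tumor (3 libraries) came from such mice that were in addition Saa3-/-, that is, lacking the serum amyloid gene Saa3. Every group shares the Cre driver, which is under control of the elastase promoter of pancreatic acinar cells, and the EYFP reporter. The labels used here state no age for the mice.

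Glycolysis splits glucose into pyruvate in the cytosol. Glucose enters through transporters, hexokinase traps it, phosphofructokinase commits it, and lactate dehydrogenase with the monocarboxylate transporters disposes of the end product as lactate. When oxygen is short, the prolyl hydroxylases that mark the HIF alpha subunits for destruction slow down, HIF dimers bind the core letters ACGTG or GCGTG in DNA, and the transcripts of many glycolytic enzymes and transporters, of angiogenic factors such as Vegfa and of pH regulators such as Car9 increase. Pancreatic ductal carcinoma is known for dense, poorly perfused stroma, so both its fibroblasts and its tumor cells can meet low oxygen.

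The promoters of these genes show those core letters directly. RefSeq windows on GRCm38.p6, from 250 bases before to 50 bases after a start site, were found for 33 of the 36 members (47 windows), and not for Slc2a3, Ndrg1 and Epas1. ACGTG or GCGTG on either strand occurred in 37 of the 47 windows (78.7%), against 43.8% of all 32851 windows of the same length, and the mean number per window was 1.87 against 0.802. The members' windows were also richer in G and C, with a median of 61.0% against 52.7%, and a match is a description of letters, not a binding site. No core occurred in the windows of Car12, Eno2, Gpi1 and Tpi1.

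The 250 bases before the start are shown for the 2 lactate dehydrogenase genes, of which Ldhb was called lower in tumor cells and Ldha was not called. They are also shown for Slc16a1, the only member called higher in WT_CAF than in normal fibroblasts. The last is Ankrd37, the member with the largest rise in tumor cells among those called. The sequences run 5′ to 3′ on the gene's strand and capitals mark the cores on either strand. A palindromic CACGTG, which is also the E-box of the MYC and USF factors, counts as 2 cores.
Ldha, chr7:46845554-46845803, plus strand: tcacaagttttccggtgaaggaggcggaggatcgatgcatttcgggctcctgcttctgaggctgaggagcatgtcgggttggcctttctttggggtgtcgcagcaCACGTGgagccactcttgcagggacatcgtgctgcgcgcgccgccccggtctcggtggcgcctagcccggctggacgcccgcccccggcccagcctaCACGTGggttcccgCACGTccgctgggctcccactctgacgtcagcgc
Ldhb, chr6:142507958-142508207, minus strand: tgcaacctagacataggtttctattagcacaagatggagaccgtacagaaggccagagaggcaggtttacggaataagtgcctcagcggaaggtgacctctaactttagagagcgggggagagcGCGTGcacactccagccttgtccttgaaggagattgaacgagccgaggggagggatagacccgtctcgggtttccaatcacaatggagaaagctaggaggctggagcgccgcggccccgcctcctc
Slc16a1, chr3:104638414-104638663, plus strand: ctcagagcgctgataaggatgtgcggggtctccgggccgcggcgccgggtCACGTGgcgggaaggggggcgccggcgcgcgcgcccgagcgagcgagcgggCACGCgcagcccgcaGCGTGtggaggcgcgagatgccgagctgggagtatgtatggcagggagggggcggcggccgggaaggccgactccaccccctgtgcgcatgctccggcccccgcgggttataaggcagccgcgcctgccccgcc
Ankrd37, chr8:45999851-46000100, minus strand: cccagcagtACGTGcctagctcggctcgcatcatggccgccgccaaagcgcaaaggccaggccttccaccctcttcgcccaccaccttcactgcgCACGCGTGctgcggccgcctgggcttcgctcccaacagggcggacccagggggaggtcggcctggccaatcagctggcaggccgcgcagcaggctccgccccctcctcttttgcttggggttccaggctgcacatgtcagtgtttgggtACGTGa
The stretch before Ldha held 5 cores, that before Slc16a1 4, that before Ankrd37 4 and that before Ldhb 1.

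The markers of the labelled cell types were present in most libraries, beside acinar transcripts in many. The summed level of 10 fibroblast markers was 3310 to 8881 FPKM in NPF, 7539 to 23550 FPKM in 7 of the 8 CAF libraries and 13.2 to 682 FPKM in the 7 tumor cell libraries, and that of 8 epithelial markers was 4.13 to 309 FPKM in those CAF libraries and 2797 to 6576 FPKM in tumor cells. WT_CAF 1 stood apart, with 887 FPKM of fibroblast and 627 FPKM of epithelial markers and 9.80 FPKM of Pdgfra against 81.0 to 123 FPKM in the other CAF. Its epithelial sum was mostly Krt8 (252 FPKM), Krt18 (245 FPKM) and Krt19 (119 FPKM), with Cdh1 at 10.1 FPKM. Epcam, Cldn4, Cldn7 and Muc1 were at 0.211 to 0.418 FPKM there. WT_tumor 4 held keratins but 2.60 FPKM of Epcam against 129 to 586 FPKM in the other tumor cell libraries, and 5.95 FPKM of Cldn7 against 104 to 248 FPKM. The summed level of 8 acinar markers was 961 to 38510 FPKM in NPF, 13.1 to 570 FPKM in CAF and 9.17 to 19250 FPKM in tumor cells. It exceeded the fibroblast sum in NPF 2 (5545 against 4618 FPKM) and NPF 3 (38510 against 8881 FPKM) and the epithelial sum in WT_tumor 1 (14490 against 3884 FPKM), WT_tumor 2 (6413 against 5003 FPKM), KO_tumor 2 (8058 against 6576 FPKM) and KO_tumor 3 (19250 against 4198 FPKM). Collagen levels were not usable as a check in every library, since Col1a1 and Col3a1 were listed at 0 in KO_CAF 2 and Col3a1 in 4 further CAF libraries. Saa3 was at 0 to 1.85 FPKM in the 6 knockout libraries, at 892 to 4278 FPKM in 4 WT_CAF libraries and at 7.24 FPKM in WT_CAF 1. The index in the sample labels has 6 bases, 16 bases or is absent; NPF and WT_CAF 1 and 2 have none, and this form entered each limma model as a term. With that term WT_CAF 1 and 2 carry the comparison of WT_CAF with NPF and do not enter the tumor cell against CAF difference, so values without WT_CAF 1 are also given with the term left out. In 16-base against 6-base libraries limma called 17.8% of all genes (6.66% higher, 11.2% lower) and 5 of the 36 members, with Eno1 (2.06 ± 0.52, log2 scale) and Hif1a (0.85 ± 0.26) higher, and Hk2 (-1.22 ± 0.39), Epas1 (-2.09 ± 0.63) and Ddit4 (-2.54 ± 0.47) lower.

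The members spanned a wide range of levels. Over all libraries 9 members had a median above 100 FPKM, all of them enzymes of the chain from Gpi1 to Ldha, and 11 had a median below 10 FPKM. Gapdh, the enzyme that oxidises glyceraldehyde phosphate and a common reference gene, differed 7.98-fold between its lowest and highest library. No member was listed at 0 anywhere. In every sentence that lists single libraries, values are in FPKM and in the order of the library numbers.

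**Figure D1:**
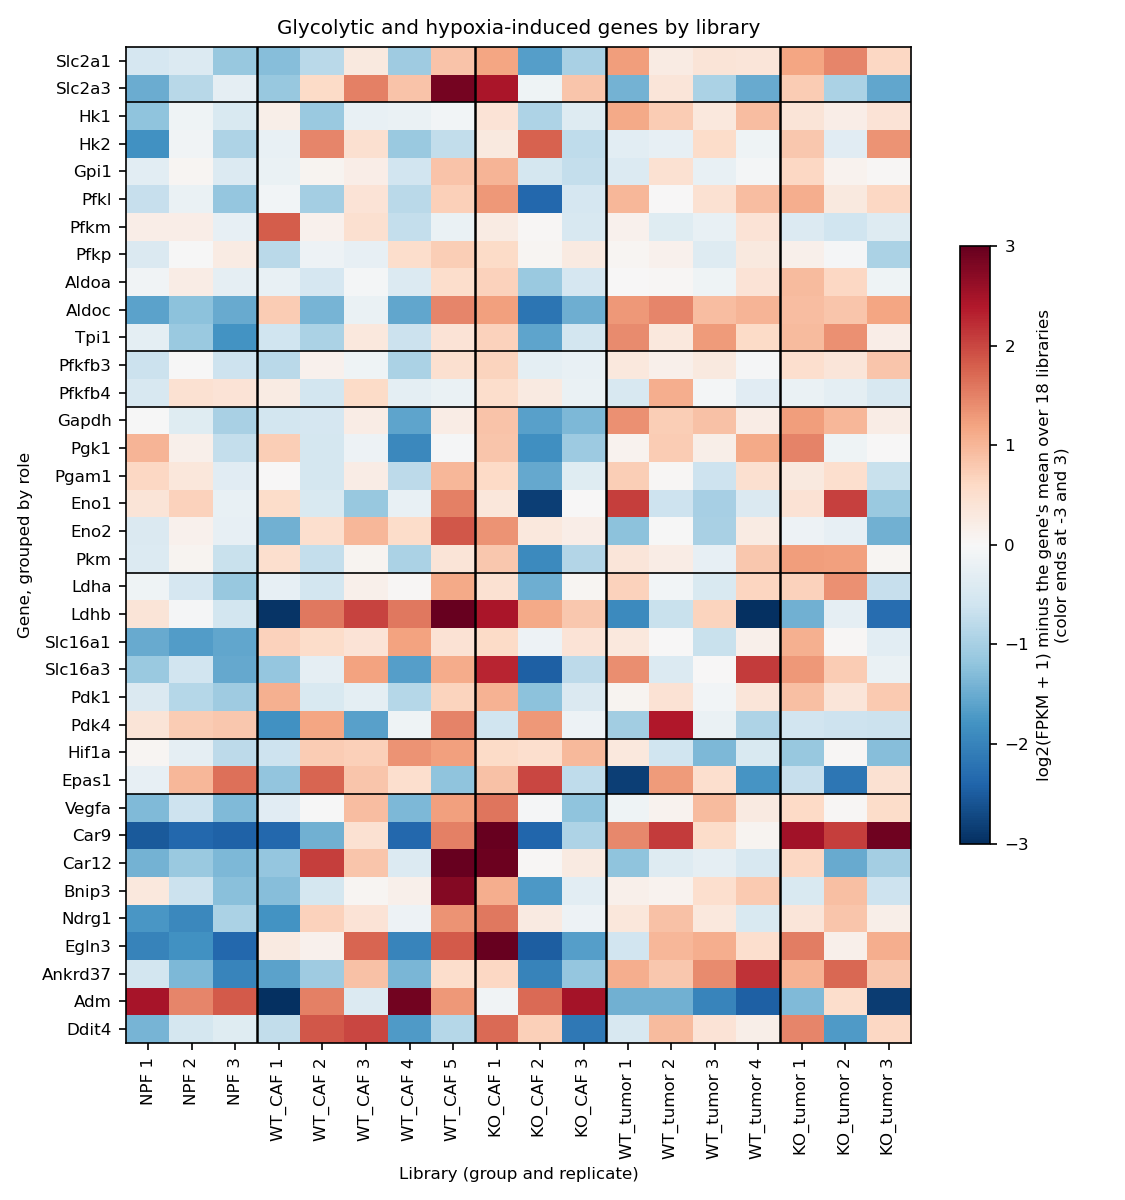
Heat map of the 36 members (rows, ordered by role) in the 18 libraries (columns, by group), colored by log2(FPKM + 1) minus its mean over all libraries (color ends at -3 and 3). KO_CAF 1, WT_CAF 5 and WT_CAF 3 are raised over most rows among the CAF, and KO_CAF 2 is low over most.

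Within the CAF groups, the same few libraries were high for most members. KO_CAF 1 was the highest of the 8 CAF libraries for 15 of the 36 members (41.7%, against 7.81% of all genes tested) and among the 3 highest for 32 (88.9%, against 37.4%). WT_CAF 5 was among the 3 highest for 29 members (80.6%, against 41.7%) and WT_CAF 3 for 20 (55.6%, against 33.7%). At the other end, KO_CAF 2 was the lowest of the 8 for 17 members, and for 10.7% of all genes. Among the 7 tumor cell libraries KO_tumor 1 was in the top 3 for 26 members (72.2%, against 36.8%) and no other library exceeded 17. These shares describe single libraries and were not tested.

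**Figure D2:**
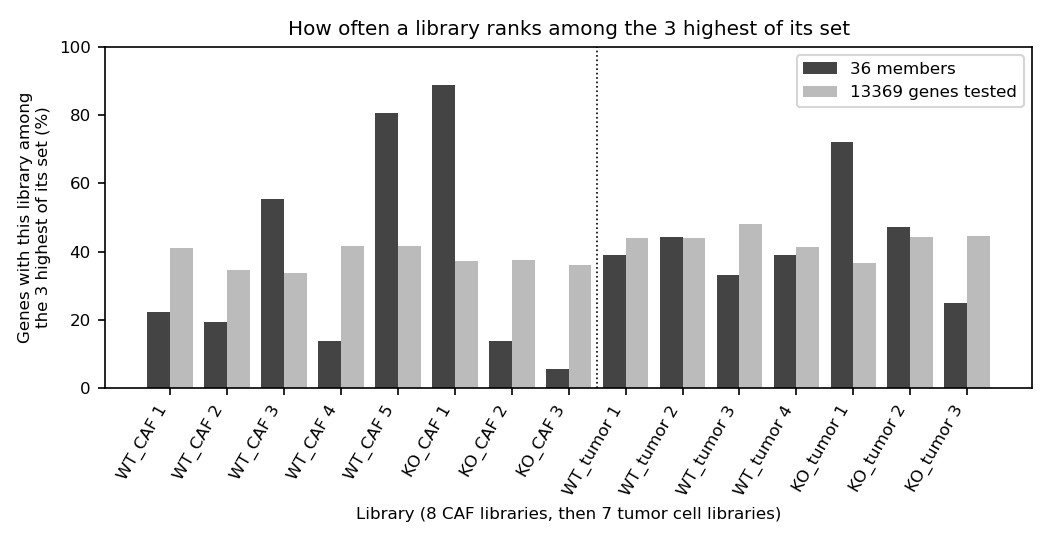
Percentage of genes for which each library is among the 3 highest of its set, for the 36 members (dark bars) and the 13369 genes tested (light bars). The dark bars of WT_CAF 5 (80.6%) and KO_CAF 1 (88.9%) and, among tumor cells, of KO_tumor 1 (72.2%) stand well above their light bars.

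Several genes known as sensitive targets of HIF show this spread, though not all members followed the same libraries. Egln3, the prolyl hydroxylase that HIF itself induces, was at 2.63, 3.11 and 1.84 in NPF, 16.4, 14.8, 47.4, 2.69 and 51.3 in WT_CAF, 164, 1.62 and 3.58 in KO_CAF, 8.73, 28, 29.8 and 19.6 in WT_tumor and 41.3, 15.1 and 29.7 in KO_tumor. Car9, a carbonic anhydrase of the cell surface that acidifies the outside of hypoxic cells, was at 0.0825, 0.225 and 0.169 in NPF, 0.225, 1.29, 7.65, 0.217 and 16.7 in WT_CAF, 53.5, 0.194 and 2.29 in KO_CAF, 15.9, 26, 8.16 and 5.66 in WT_tumor and 34.6, 25.3 and 46.1 in KO_tumor. Both were high in KO_CAF 1, WT_CAF 5 and WT_CAF 3 and low in KO_CAF 2 and WT_CAF 4, so each CAF group held libraries near the NPF level and libraries in or above the tumor cell range.
The lactate exporter Slc16a3 (MCT4) was at 15.7, 23.3 and 11.4 in NPF, 15.3, 28.9, 82.4, 10.5 and 76.9 in WT_CAF, 174, 5.64 and 19.8 in KO_CAF, 94.5, 26.1, 35.7 and 155 in WT_tumor and 88.5, 59.9 and 30.3 in KO_tumor. Its order among CAF libraries was led by the same 3, and KO_CAF 2 was lowest. Vegfa, the vascular growth factor, ranged from 29.4 to 179 FPKM in WT_CAF and from 32.3 to 233 FPKM in KO_CAF, again with KO_CAF 1 and WT_CAF 5 on top.
The mitophagy receptor Bnip3 was highest in WT_CAF 5, at 474 FPKM against 20.4 to 150 FPKM in the other 7 CAF libraries. Some other members had another order. Adm, the most variable member in WT_CAF (SD 2.73 on the log2 scale), was at 275 FPKM in WT_CAF 4 and 208 FPKM in KO_CAF 3. It was at 89.3 FPKM in WT_CAF 5, 33.4 FPKM in KO_CAF 1 and 26.8 FPKM in WT_CAF 3. Hk2 was highest in KO_CAF 2 (53.8 FPKM), and Ddit4 was at 148 FPKM in WT_CAF 3 but 19.4 FPKM in WT_CAF 5.

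Put as a spread, the median over the 36 members of the SD of log2(FPKM + 1) was 1.29 in KO_CAF (all genes 0.357), 0.995 in WT_CAF (all genes 0.505), 0.607 in KO_tumor (all genes 0.409), 0.49 in WT_tumor (all genes 0.438) and 0.47 in NPF (all genes 0.317). In KO_CAF, 34 of 36 members varied more than the median gene, with Egln3 the most variable at an SD of 3.24. Several marker sums, though not all, moved with KO_CAF 1, WT_CAF 5 or WT_CAF 3. The sum of 4 neutrophil markers was 536 FPKM in KO_CAF 1 and 525.7 FPKM in KO_tumor 1 and at most 83.8 FPKM in the other 16. These 2 libraries have consecutive sample titles, and the labels used here do not say whether they came from 1 mouse. The epithelial sum was 309 FPKM in WT_CAF 5, 175 FPKM in KO_CAF 1 and 68.8 FPKM in WT_CAF 3, against 4.13 to 48.2 FPKM in WT_CAF 2, WT_CAF 4, KO_CAF 2 and KO_CAF 3. It was highest in WT_CAF 1, at 627 FPKM, which was among the 3 highest CAF for 8 members (22.2%, against 41.1% of all genes). The macrophage sum was highest in WT_CAF 4 (157 FPKM, against 104 FPKM in KO_CAF 1), and the acinar sum was 570 FPKM in WT_CAF 5 but 13.1 FPKM in KO_CAF 1. The sum of 4 erythroid markers was 79.6 FPKM in KO_CAF 1 and 59.2 FPKM in WT_CAF 5, against 0.603 to 17.1 FPKM in the other CAF. The sum of 5 endothelial markers was 42.2 FPKM in WT_CAF 5, 16.7 FPKM in KO_CAF 1 and 14.5 FPKM in WT_CAF 3, against 0.424 to 12.4 FPKM in the other CAF. In these 3 libraries it was mostly Kdr (29.3, 8.44 and 8.79 FPKM) and Esam (11.1, 7.55 and 3.49 FPKM). The other markers Pecam1, Cdh5 and Tek were at 0.117 to 1.47 FPKM there, and Tek reached 8.18 FPKM in KO_CAF 3. The sum of 8 dissociation stress genes was lower in these 3 (2402, 3966 and 5025 FPKM) than in WT_CAF 2, WT_CAF 4, KO_CAF 2 and KO_CAF 3 (5480 to 9031 FPKM), and was 245 FPKM in WT_CAF 1. Their part in the result was not tested, and in sorted bulk samples a change in the share of a cell type and a change of RNA per cell cannot be told apart.

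The first comparison asked how tumor cells differ from CAF, with both Saa3 genotypes averaged. The glycolytic enzymes Hk1, Aldoc, Tpi1 and Gapdh and the HIF target Ankrd37 were called higher in tumor cells, and the transporter Slc2a3, the enzymes Eno2 and Ldhb, both HIF alpha subunits, Car12 and Adm were called lower. The call used limma on log2(FPKM + 1) with an adjusted p under 0.05 over all genes. With 12 of 36 members called (5 higher, 7 lower), the share was under that of all genes, of which 45.9% were called, 23% higher and 23% lower. The members' median difference was 0.13 on the log2 scale, beside 0.07 for all genes tested, and 19 of the 36 differences were above 0. Without KO_CAF 1, 13 members were called higher and the median was 0.52, while over all genes 2792 were called higher, beside 3071 with it. KO_CAF 1 was the highest CAF library for 15 of the 36 members, so leaving it out tends to lower their CAF level. The count of higher members was 1 without WT_tumor 1, KO_CAF 2 or KO_tumor 2, 2 without WT_CAF 4, KO_tumor 1 or KO_CAF 3 and 3 without WT_CAF 3, and that of lower members was 4 without WT_tumor 1, where over all genes 2403 to 2767 were higher and, without WT_tumor 1, 2677 lower. Of the 7 tumor cell libraries 4 held more acinar than epithelial marker transcripts, as listed above, against 13.1 to 570 FPKM of acinar markers in CAF, and their part in these differences was not tested. All 7 tumor cell libraries lay outside the range of all 8 CAF for 0 members, above in 3.69% and below in 5.09% of all genes, and with WT_CAF 1 left out (a choice made after the values were seen) Ldhb and Hif1a lay below without overlap, as did 12.2% of all genes.

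**Figure D3:**
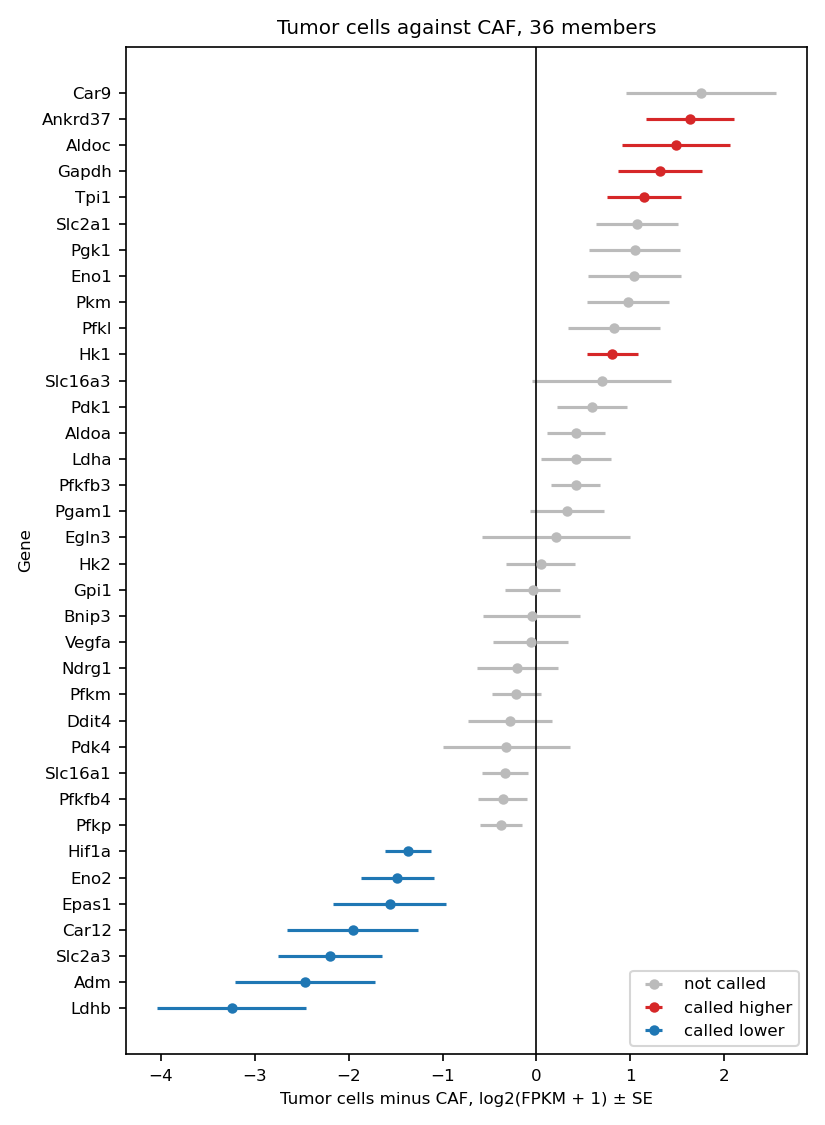
Difference of each of the 36 members between tumor cells and CAF on the log2(FPKM + 1) scale, as the mean of the WT and KO contrasts, with horizontal bars for ± 1 SE; red and blue mark members with an adjusted p under 0.05. Hif1a has one of the shortest bars among the 7 blue genes, and Ldhb, at -3.24, lies farthest from 0.

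Differences below are tumor cells minus CAF on that scale, ± SE, with limma's adjusted p. The 2 HIF alpha genes were both called lower in tumor cells, though the Epas1 call depended on the setting. Hif1a, the oxygen-labile subunit of the main hypoxia factor, was at 50.4, 39.5 and 27.5 in NPF, 31, 81.9, 78.8, 123 and 114 in WT_CAF, 72.5, 68.3 and 95.4 in KO_CAF, 59.7, 31.2, 18.1 and 34.9 in WT_tumor and 21.3, 49 and 19.2 in KO_tumor. Every tumor cell library was under every CAF library except WT_CAF 1, at a difference of -1.37 ± 0.25 (adjusted p = 0.000576). The call held in each of 29 alternative settings. Here and for the genes below, 5 of these settings (without an NPF library, WT_CAF 1 or WT_CAF 2) change the error estimate but cannot change the difference, since these libraries do not enter it. Of the members called in this comparison, only Hif1a and Adm were still called within the 6-base libraries. The Hif1a difference was -1.34 (adjusted p = 0.00366) without the form term and -1.51 (adjusted p = 0.000352) without the term and WT_CAF 1, and the difference was -1.63 within the 6-base libraries and -0.96 within the 16-base libraries. These are transcript levels, and HIF is controlled mainly through the stability of its protein.
Epas1, which encodes the alpha subunit of the sister factor HIF-2, was at 5.36, 14.1 and 22.6 in NPF, 2.35, 24.5, 12.5, 9.81 and 2.26 in WT_CAF, 12.9, 29.4 and 3.49 in KO_CAF, 0.0718, 17.4, 9.70 and 1.22 in WT_tumor and 3.67, 0.682 and 9.39 in KO_tumor. It varied over more than a log2 unit in every group, the groups overlapped, and its difference of -1.56 ± 0.60 (adjusted p = 0.0464) passed in 14 of 29 alternatives. The Epas1 call was lost without NPF 2, WT_CAF 3, WT_CAF 4, WT_tumor 1, WT_tumor 4, KO_CAF 1, 2 or 3, KO_tumor 1 or KO_tumor 2, at -1.30 to -1.82 with adjusted p values of 0.0514 to 0.117. It was also lost without the form term, with only the groups compared, with no filter on low values and within the 6-base libraries. The adjusted p reached 0.295 among these settings. Without WT_CAF 1 and the form term the Epas1 call was lost too (-1.34, adjusted p = 0.129). The other 11 members called in this comparison were then called in the same direction.

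Of the glucose transporters, Slc2a1 (GLUT1), the widespread basal carrier, was at 46.8, 49.5 and 29.8 in NPF, 26.9, 37.8, 81.8, 31.4 and 122 in WT_CAF, 152, 20.4 and 33.2 in KO_CAF, 159, 79, 87.6 and 85.8 in WT_tumor and 151, 185 and 102 in KO_tumor. Tumor cells held 79.0 to 185 FPKM and CAF 20.4 to 152 FPKM, with the 2 highest CAF being KO_CAF 1 and WT_CAF 5, and the difference of 1.07 ± 0.44 missed the threshold (adjusted p = 0.06). Slc2a3 (GLUT3), a high-affinity carrier, was at 0.131, 0.799 and 1.63 in NPF, 0.446, 3.74, 8.12, 4.81 and 22.2 in WT_CAF, 16.5, 1.90 and 4.72 in KO_CAF, 0.188, 3.10, 0.648 and 0.123 in WT_tumor and 4.40, 0.663 and 0.0822 in KO_tumor. It went the other way, with a difference of -2.20 ± 0.55 (adjusted p = 0.00561), and was called in 28 of 29 alternatives. WT_CAF 1, WT_CAF 2 and KO_CAF 2 lay within the tumor cell range, and the other 5 CAF libraries lay above it.

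In the steps from glucose to triose phosphate, Hk1, the housekeeping hexokinase bound to mitochondria, was at 11.1, 24.3 and 19.3 in NPF, 30.3, 11.9, 22.7, 23.1 and 25.4 in WT_CAF, 35.7, 13.5 and 20.2 in KO_CAF, 60.4, 46.1, 33.7 and 51.9 in WT_tumor and 35, 30.6 and 35.8 in KO_tumor. All 4 WT_tumor libraries were above all 5 WT_CAF, and the difference was 0.81 ± 0.27 (adjusted p = 0.0256, called in 25 of 29 alternatives). The Hk1 call was lost without WT_CAF 3 (0.80, adjusted p = 0.0626), WT_tumor 1 (0.71, 0.0749) or KO_CAF 2 (0.63, 0.0919). It was lost within the 6-base libraries too (adjusted p = 0.147). Hk2, the inducible hexokinase, was at 3.51, 14 and 7.45 in NPF, 12.7, 43.1, 21.2, 6.40 and 8.58 in WT_CAF, 18.6, 53.8 and 8.39 in KO_CAF, 11.8, 12.5, 22.4 and 13.6 in WT_tumor and 26.9, 11.7 and 39.997 in KO_tumor. Its highest CAF libraries were WT_CAF 2 and KO_CAF 2, and its difference was 0.05 ± 0.37 (adjusted p = 0.931).
The 3 phosphofructokinase subunits had no call. Pfkl, the liver type, was at 21, 30.2 and 14.9 in NPF, 32.9, 16.6, 46.4, 19.4 and 57.7 in WT_CAF, 86.2, 5.93 and 24.1 in KO_CAF, 70.6, 34.7, 47.7 and 66.8 in WT_tumor and 74.7, 42.8 and 54.1 in KO_tumor. Pfkm, the muscle type, was at 11.5, 11.5 and 8.22 in NPF, 37.3, 11, 14.2, 5.66 and 8.55 in WT_CAF, 11.9, 10.2 and 6.90 in KO_CAF, 11, 7.45, 8.33 and 13.5 in WT_tumor and 7.29, 6.19 and 7.33 in KO_tumor. Pfkp, the platelet type, was at 14.9, 20.2 and 24.5 in NPF, 11.3, 18.5, 17.2, 29.8 and 34.7 in WT_CAF, 30.8, 21.4 and 24.8 in KO_CAF, 21.6, 22.6, 15.5 and 25.3 in WT_tumor and 22.9, 20.00 and 10.2 in KO_tumor.
Pfkl spread most, from 5.93 FPKM in KO_CAF 2 to 86.2 FPKM in KO_CAF 1, and the largest Pfkm value, 37.3 FPKM, was that of WT_CAF 1. Of the 2 regulators that make and remove the sugar bisphosphate activating phosphofructokinase, Pfkfb3 was at 5.08, 8.41 and 5.20 in NPF, 4.45, 9.41, 7.69, 3.91 and 12.2 in WT_CAF, 14.1, 6.70 and 7.10 in KO_CAF, 10.7, 9.48, 10.6 and 8.28 in WT_tumor and 12.5, 11.3 and 15.9 in KO_tumor. Pfkfb4 was at 2.57, 5.83 and 5.65 in NPF, 4.93, 2.41, 6.42, 3.02 and 3.34 in WT_CAF, 6.10, 5 and 3.31 in KO_CAF, 2.54, 9.58, 3.80 and 2.91 in WT_tumor and 3.30, 3.04 and 2.55 in KO_tumor. Their differences were 0.42 ± 0.26 and -0.36 ± 0.26 (adjusted p = 0.202 and 0.275).

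Aldolase cleaves the sugar into trioses, and Aldoa, the muscle and general form, was at 559, 697 and 499.7 in NPF, 514, 424, 581, 452 and 866 in WT_CAF, 974, 276 and 425 in KO_CAF, 607, 621, 552 and 795 in WT_tumor and 1167, 928 and 547 in KO_tumor. Its difference was 0.42 ± 0.31 (adjusted p = 0.278). Aldoc, the brain form, was at 0.553, 0.996 and 0.645 in NPF, 6.94, 0.789, 3.07, 0.598 and 11.9 in WT_CAF, 10.1, 0.0324 and 0.704 in KO_CAF, 10.5, 11.9, 7.93 and 8.52 in WT_tumor and 7.97, 7.41 and 9.71 in KO_tumor. Tumor cells were uniform at 7.41 to 11.9 FPKM, whereas CAF were split between libraries at or below 0.789 FPKM and libraries at 3.07 to 11.9 FPKM, WT_CAF 1 among the latter. The difference of 1.49 ± 0.57 (adjusted p = 0.0469) passed in 12 of 29 alternatives. The Aldoc call was lost without any single library except WT_CAF 1, WT_CAF 2, WT_CAF 5 and KO_CAF 1, at 1.05 to 1.53 with adjusted p values of 0.055 to 0.159. It was also lost with no filter on low values, only the groups compared or only 6-base libraries, with adjusted p up to 0.21.
Tpi1, which interconverts the trioses, was at 267, 152 and 94.1 in NPF, 218, 170.2, 408, 209 and 438 in WT_CAF, 533, 109 and 224 in KO_CAF, 875, 409, 793 and 489 in WT_tumor and 635, 852 and 377 in KO_tumor. Its difference was 1.15 ± 0.39 (adjusted p = 0.0288, called in 22 of 29 alternatives), and KO_CAF 1, WT_CAF 5 and WT_CAF 3 reached into the tumor cell range. The Tpi1 call was lost without WT_tumor 1, WT_CAF 4, KO_tumor 1, KO_CAF 2, KO_tumor 2 or KO_CAF 3, at 0.83 to 1.10 with adjusted p values of 0.0543 to 0.105. It was lost within the 6-base libraries too (adjusted p = 0.4). Gpi1, which turns glucose phosphate into fructose phosphate, ranged from 73.5 to 244 FPKM in CAF and from 89.8 to 187 FPKM in tumor cells (difference -0.04 ± 0.29).

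In the steps from triose phosphate to pyruvate, Gapdh was at 993, 789 and 516 in NPF, 685, 708, 1179, 336 and 1171 in WT_CAF, 1811, 325 and 398 in KO_CAF, 2593, 1689, 1843 and 1176 in WT_tumor and 2415, 2014 and 1169 in KO_tumor. It was higher by 1.32 ± 0.45 (adjusted p = 0.0281, called in 21 of 29 alternatives), with 0.76 within the 6-base libraries and 2.19 within the 16-base libraries. Only KO_CAF 1, WT_CAF 3 and WT_CAF 5 reached the tumor cell range. Without each of the 6 libraries just named for Tpi1 the Gapdh difference was 1.02 to 1.23, with adjusted p values of 0.0572 to 0.101. The Gapdh call was also lost with no filter on low values and within the 6-base libraries, with adjusted p up to 0.41. Reads of Gapdh and of other abundant enzymes can be shared with processed pseudogenes, through a counting step not given in the sources used here.
The kinase Pgk1, the mutase Pgam1 and the pyruvate kinase Pkm were not called: their differences were 1.05 ± 0.49, 0.32 ± 0.39 and 0.97 ± 0.44 (adjusted p = 0.0921, 0.521 and 0.0832). The Pkm row does not separate its muscle splice forms. Pkm ranged from 158 FPKM in KO_CAF 2 to 1416 FPKM in KO_tumor 1, Pgk1 from 83.6 FPKM in WT_CAF 4 to 905 FPKM in KO_tumor 1 and Pgam1 from 85.1 FPKM in KO_CAF 2 to 491 FPKM in WT_CAF 5.
The ubiquitous enolase Eno1 was at 301, 373 and 198 in NPF, 337, 169, 105, 197 and 655 in WT_CAF, 293, 31.8 and 232 in KO_CAF, 967, 149, 115 and 170.2 in WT_tumor and 313, 951 and 106 in KO_tumor. Its near copy Eno1b was at 0.255 FPKM in KO_tumor 3 and 1.02 FPKM in KO_CAF 3 and at 18.4 to 227 FPKM in the other libraries, and since the division of reads between the copies was not tested, the Eno1 levels are uncertain. Eno1 was highest in WT_tumor 1 and KO_tumor 2, both with a 16-base index, and was not called (1.04 ± 0.49, adjusted p = 0.0982). Eno2, the neuronal enolase, was at 6.39, 9.86 and 7.49 in NPF, 2.69, 13.3, 19, 13.6 and 35.1 in WT_CAF, 24.5, 11.5 and 10.5 in KO_CAF, 3.24, 8.99, 4.12 and 10.9 in WT_tumor and 8.03, 7.38 and 2.70 in KO_tumor. Its difference was -1.48 ± 0.39 (adjusted p = 0.00775, called in 28 of 29 alternatives), and WT_CAF 1 had the lowest CAF value.

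**Figure D4:**
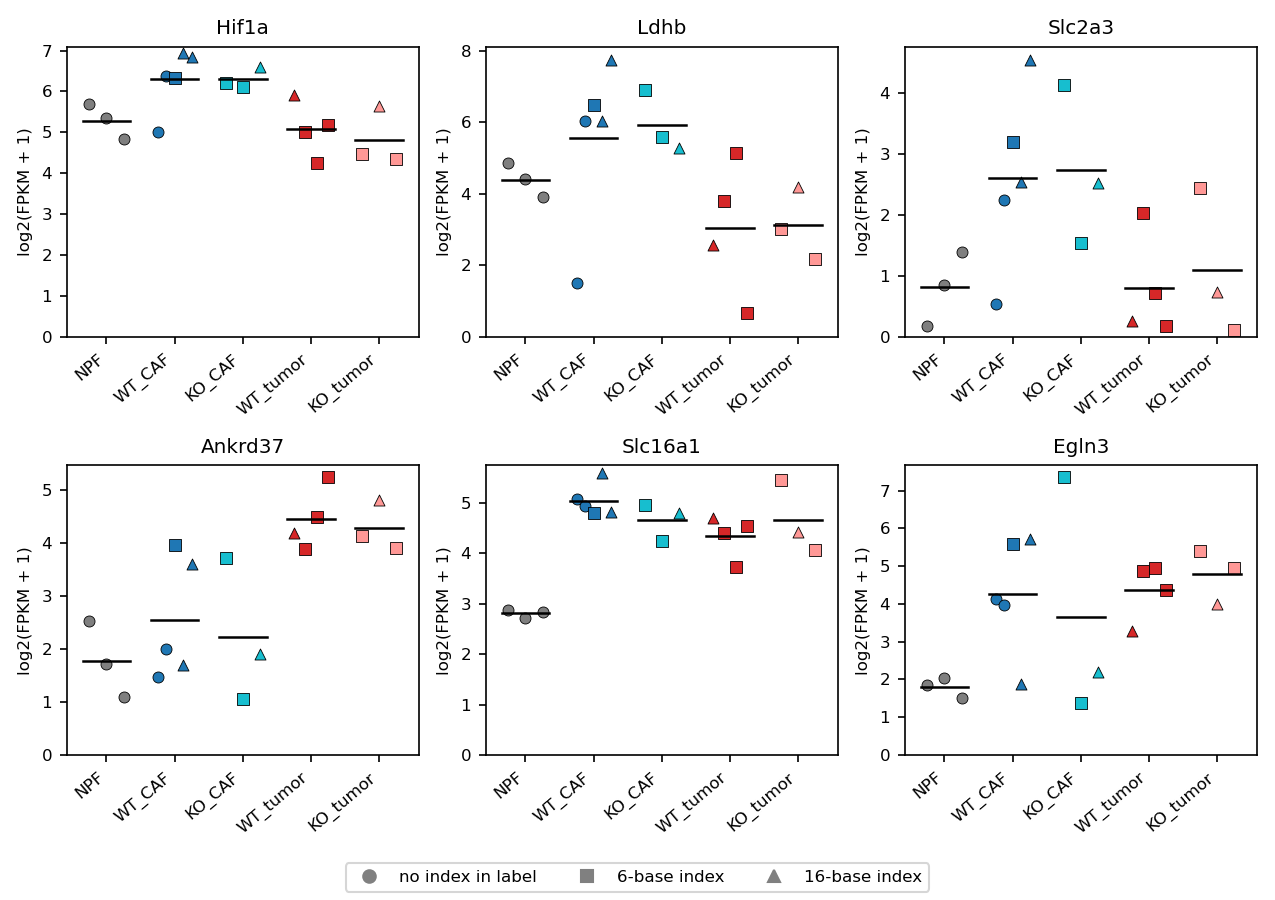
Levels of 6 members as log2(FPKM + 1), with a point for each library, by group, lines for group means and marker shapes for the index form. Hif1a and Ldhb lie lower in all tumor cell libraries than in all CAF other than WT_CAF 1, and Slc16a1 lies higher in every CAF and tumor cell library than in NPF.

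The fate of pyruvate and lactate gave the largest change. Ldha, the dehydrogenase subunit that favours lactate formation, was at 584, 449 and 291 in NPF, 535, 436, 707, 649 and 1403 in WT_CAF, 875, 231 and 663 in KO_CAF, 1029, 605, 462 and 993 in WT_tumor and 1033, 1641 and 394 in KO_tumor. It was abundant everywhere and not called (0.42 ± 0.37, adjusted p = 0.374). Ldhb, the subunit that favours lactate oxidation, was at 27.9, 20.3 and 13.9 in NPF, 1.85, 64.6, 88.1, 64.9 and 214 in WT_CAF, 119, 47.4 and 37.7 in KO_CAF, 4.88, 12.9, 34 and 0.592 in WT_tumor and 7.07, 17.1 and 3.52 in KO_tumor.
Tumor cells held 0.592 to 34.0 FPKM of Ldhb, and 7 of the 8 CAF held 37.7 to 214 FPKM. WT_CAF 1, at 1.85 FPKM, sat with the tumor cells. The difference was -3.24 ± 0.80 (adjusted p = 0.00478), called in 28 of 29 alternatives and -3.47 within the 6-base and -2.72 within the 16-base libraries. Ldhb thus made up 5.37% to 17% of the summed FPKM of both subunits in the other 7 CAF libraries, 4.33% to 4.57% in NPF, 0.344% in WT_CAF 1 and 0.0596% to 6.86% in tumor cells.
The lactate and pyruvate carrier Slc16a1 (MCT1) was at 6.35, 5.55 and 6.17 in NPF, 32.8, 29.95, 26.9, 47.6 and 27.2 in WT_CAF, 30.3, 17.9 and 27 in KO_CAF, 25, 20.1, 12.3 and 22.3 in WT_tumor and 43.1, 20.4 and 15.9 in KO_tumor. Tumor cells and CAF overlapped (-0.33 ± 0.25, adjusted p = 0.289), and both were above NPF, as described below. Slc16a3, listed above, differed by 0.70 ± 0.74 (adjusted p = 0.461).
Of the kinases that switch off pyruvate dehydrogenase, the hypoxia-induced Pdk1 was at 3.52, 2.35 and 1.91 in NPF, 11.6, 3.39, 3.93, 2.36 and 8.57 in WT_CAF, 11.5, 1.59 and 3.47 in KO_CAF, 5.46, 7.26, 4.78 and 6.85 in WT_tumor and 10.3, 6.85 and 9.44 in KO_tumor. Pdk4, which is raised by fasting and fatty acids, was at 6.69, 8.94 and 9.18 in NPF, 0.670, 12.4, 0.890, 4.33 and 15.5 in WT_CAF, 2.85, 13.3 and 4.22 in KO_CAF, 1.83, 29.7, 4.08 and 2.06 in WT_tumor and 2.90, 2.79 and 2.75 in KO_tumor. Neither was called, and Pdk4 scattered over more than a log2 unit within each of the WT_CAF, KO_CAF and WT_tumor groups.

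Of the hypoxia-induced genes, Ankrd37, a small ankyrin-repeat protein that is a direct target of HIF, was at 4.75, 2.29 and 1.14 in NPF, 1.78, 3.01, 14.5, 2.24 and 11.1 in WT_CAF, 12.1, 1.09 and 2.76 in KO_CAF, 17.1, 13.7, 21.3 and 36.9 in WT_tumor and 16.4, 27 and 13.8 in KO_tumor. Tumor cells held 13.7 to 36.9 FPKM and 7 of 8 CAF 1.09 to 12.1 FPKM, with WT_CAF 3 at 14.5 FPKM inside the tumor range. The difference was 1.63 ± 0.47 (adjusted p = 0.012, called in 27 of 29 alternatives). The Ankrd37 call was lost without KO_tumor 2 (1.31, adjusted p = 0.0632) and within the 6-base libraries (adjusted p = 0.258).
Car12, a surface carbonic anhydrase like Car9, was at 0.220, 0.490 and 0.281 in NPF, 0.461, 12.6, 4.81, 1.46 and 36.7 in WT_CAF, 23.8, 2.34 and 2.94 in KO_CAF, 0.414, 1.46, 1.69 and 1.33 in WT_tumor and 3.98, 0.138 and 0.595 in KO_tumor. Its difference was -1.95 ± 0.70 (adjusted p = 0.0342, called in 21 of 29 alternatives), opposite in sign to that of Car9 (1.75 ± 0.80, adjusted p = 0.0863). The Car12 call was lost without WT_tumor 1, WT_CAF 5, KO_CAF 1, KO_tumor 2 or KO_tumor 3, at -1.41 to -1.91 with adjusted p values of 0.0586 to 0.11. It was also lost with no filter on low values, only the groups compared or only 6-base libraries, with adjusted p up to 0.191. Adm, the vasodilator peptide adrenomedullin, was at 202, 100.1 and 132 in NPF, 1.03, 104, 26.8, 275 and 89.3 in WT_CAF, 33.4, 118 and 208 in KO_CAF, 12.7, 12.5, 8.41 and 5.71 in WT_tumor and 13.7, 51.9 and 4.13 in KO_tumor.
The Adm difference was -2.46 ± 0.75 (adjusted p = 0.0158, called in 27 of 29 alternatives), although WT_CAF 1, at 1.03 FPKM, was under every tumor cell library. The call was lost without WT_tumor 1 (-2.15, adjusted p = 0.0521) or KO_CAF 2 (-2.18, 0.0509). Ddit4, the stress-induced inhibitor of mTOR complex signalling, was at 13.1, 24.6 and 28 in NPF, 21.1, 135, 148, 10.5 and 19.4 in WT_CAF, 119.7, 59.5 and 7.45 in KO_CAF, 25.6, 71.2, 48.5 and 41.1 in WT_tumor and 101, 10.5 and 55.7 in KO_tumor. Among libraries with an index, Ddit4 parted by index form in both cell types. The 16-base libraries WT_CAF 4, WT_CAF 5, KO_CAF 3, WT_tumor 1 and KO_tumor 2 were at 7.45 to 25.6 FPKM and the 6-base libraries at 41.1 to 148 FPKM. Those without an index did not share 1 level, with NPF and WT_CAF 1 at 13.1 to 28 FPKM and WT_CAF 2 at 135 FPKM.
Vegfa, Bnip3, Egln3 and the stress gene Ndrg1 differed by -0.06 ± 0.40, -0.05 ± 0.52, 0.21 ± 0.79 and -0.20 ± 0.43 and were not called. Ndrg1 was at 15.2 to 31.2 FPKM in NPF, 16.7 FPKM in WT_CAF 1 and 43.7 to 184 FPKM in the other CAF and the tumor cells. The 9 members of the hypoxia-induced group therefore split into 1 higher, 2 lower and 6 not called.

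Within a single genotype fewer calls were made. In WT_tumor against WT_CAF, where limma called 21.5% of all genes (9.05% higher, 12.5% lower), 4 members were called lower: Slc2a3 (-2.76 ± 0.78, adjusted p = 0.0219), Eno2 (-1.73 ± 0.55, 0.039), Ldhb (-3.69 ± 1.12, 0.0309) and Hif1a (-1.26 ± 0.34, 0.019). No member was called higher, and 7 members in all had an unadjusted p under 0.05. Leaving out WT_CAF 3 left 0 lower members (758 of all genes, beside 1670 with all libraries), leaving out WT_tumor 1 or WT_CAF 5 left 1 (1079 and 1402 of all genes), and leaving out WT_CAF 1, WT_CAF 2 or KO_CAF 1 gave 1 higher member, with Hk1 called without KO_CAF 1 (1.05, adjusted p = 0.0429). Of left-out libraries, WT_CAF 3 ended the Hif1a call (-1.11, adjusted p = 0.131), WT_CAF 3, WT_CAF 5 or WT_tumor 1 that of Slc2a3 (0.0662 to 0.0885), these 3 or WT_tumor 4 that of Ldhb (0.0536 to 0.119), and these 3, NPF 2, KO_tumor 1, KO_CAF 3 or WT_tumor 3 that of Eno2 (0.0507 to 0.18). Hk1 was above and Slc16a1 below in WT_tumor with no overlap with WT_CAF, as were 5.66% and 7.01% of all genes.
In KO_tumor against KO_CAF, where 28.4% of all genes were called (13% higher, 15.4% lower), Ankrd37 was higher (2.05 ± 0.67, adjusted p = 0.0349) and Hif1a lower (-1.48 ± 0.35, 0.00717). The 3 KO_tumor and 3 KO_CAF libraries did not overlap for Ankrd37 (above, as in 20.6% of all genes) and for Pfkfb4, Eno2, Ldhb and Hif1a (below, as in 21.3%). Without KO_CAF 1, 12 members were called higher (1520 of all 13369 genes, beside 1741 with it). Among these members were Car9 (4.16), Egln3 (2.82), Slc2a1 (2.47) and Gapdh (2.33). KO_CAF 1 was the highest CAF library for each of these genes, so their differences rise when it is left out. Only KO_CAF 2 and KO_CAF 3 then remain in the group, and these calls are not a test of the members apart from that choice. Without KO_tumor 1, KO_CAF 2, KO_tumor 2 or KO_CAF 3 the count of higher members was 0 (893 to 1179 of all genes), and without WT_CAF 1 or WT_CAF 2 that of lower members was 3 (2372 and 2374 of all genes, beside 2057).

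Paired isoforms and related carriers can be set side by side within a library, because FPKM are per length. For 12 such pairs the log2 ratio of FPKM + 1 was compared between tumor cells and CAF with an exact two-sided permutation test over libraries, adjusted over the 12 pairs and without the index form. In the WT groups (4 against 5, smallest p possible 0.007937) the Slc2a1/Slc2a3 ratio was 5.85 ± 1.17 (SD, n = 4) in tumor cells and 3.08 ± 0.75 (SD, n = 5) in CAF (exact p = 0.007937, adjusted 0.0476). The groups stayed apart by little, with 4.29 in WT_tumor 2 against 4.27 in WT_CAF 1. The Car9/Car12 ratio was 2.58 ± 1.09 (SD, n = 4) in tumor cells and -0.87 ± 1.16 (SD, n = 5) in CAF (exact p = 0.007937, adjusted 0.0476), with 1.51 as the lowest tumor value and 0.57 as the highest CAF value. Within the 6-base libraries Slc2a1/Slc2a3 was 4.29 to 6.27 in the 3 WT_tumor against 3.18 in WT_CAF 3, and within the 16-base libraries 7.07 in WT_tumor 1 against 2.48 and 2.41 in WT_CAF 4 and 5. Car9/Car12 was 1.51 to 3.45 against 0.57 in the former and 3.58 against -1.01 and -1.09 in the latter, and each form holds too few WT libraries for a test. With a pseudocount of 0.1 in place of 1 the adjusted permutation p values were 0.143 and 0.0952, and without any single WT library they were 0.107 to 0.171, where fewer libraries also raise the smallest p possible.
Ldha/Ldhb was 6.48 ± 2.41 (SD, n = 4) in WT_tumor and 3.86 ± 2.08 (SD, n = 5) in WT_CAF (exact p = 0.119, adjusted 0.286), and the WT_CAF value of 7.56 in WT_CAF 1 stood against 2.71 to 3.30 in WT_CAF 2 to 5. In the KO groups 3 against 3 cannot go below an exact p of 0.1. There 5 pairs were apart in all 6 libraries: Slc2a1/Slc2a3 by 3.20, Pfkfb3/Pfkfb4 by 1.05, Eno1/Eno2 by 2.51, Ldha/Ldhb by 3.57 and Car9/Car12 by 4.29, each higher in tumor cells (exact p = 0.1, adjusted 0.24).
The pair Aldoa/Aldoc differed by -1.14 in WT and -1.002 in KO, and Slc16a3/Slc16a1 by 1.64 and 0.95, all with overlap between groups and unadjusted exact p values of 0.0873 to 0.5. The hexokinase pair, both phosphofructokinase pairs, Pdk1/Pdk4 and Hif1a/Epas1 had exact p values of 0.191 to 1 in either genotype, and in WT those of Pfkfb3/Pfkfb4 and Eno1/Eno2 were 0.532 and 0.421.

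**Figure D5:**
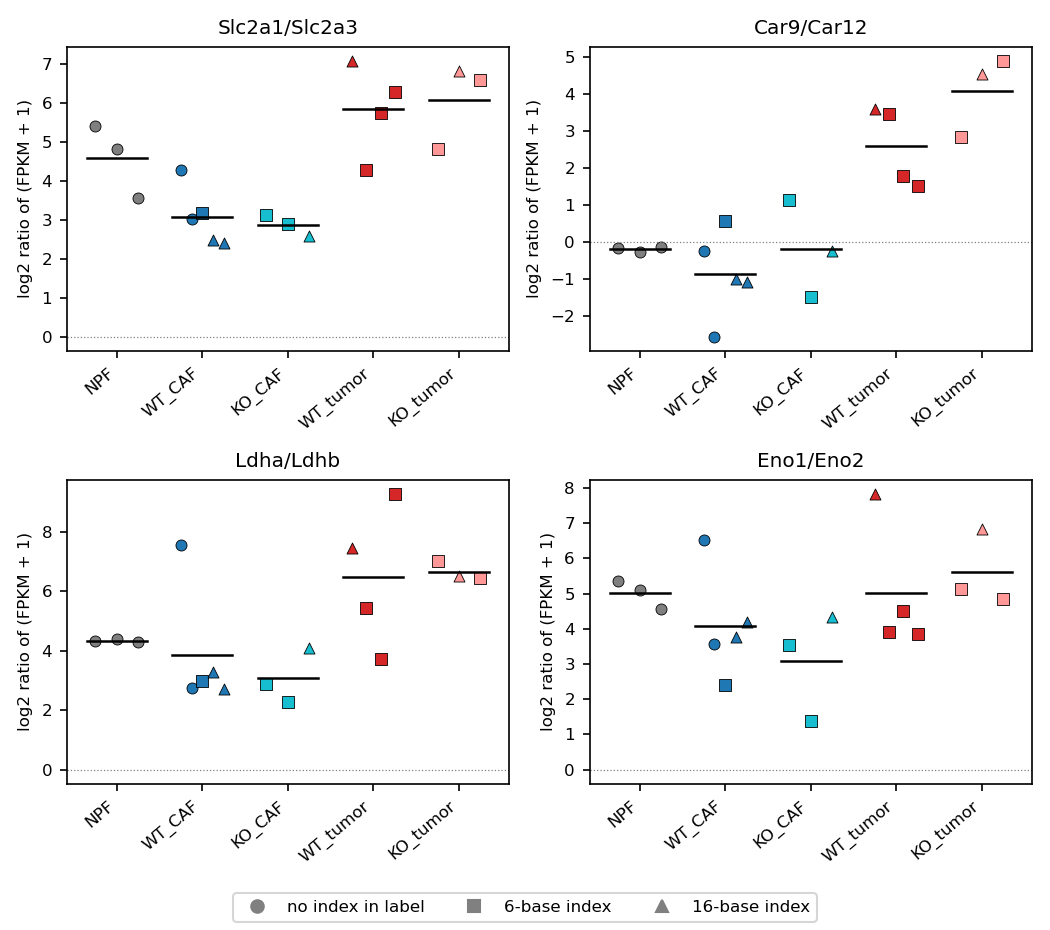
Log2 ratio of FPKM + 1 for 4 gene pairs in each library, by group, with the group mean as a line and marker shapes for the index form. Slc2a1/Slc2a3 and Car9/Car12 are higher in every tumor cell library than in every CAF library of the same genotype, while Ldha/Ldhb in WT_CAF 1 (7.56) lies among the tumor cells.

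The second comparison asked what distinguishes CAF from normal fibroblasts. Slc16a1, which carries lactate and pyruvate with a proton across the plasma membrane in either direction, was the member called. It was at 5.55 to 6.35 FPKM in the 3 NPF and at 26.9 to 47.6 FPKM in the 5 WT_CAF libraries, a difference of 2.21 ± 0.40 on the log2 scale (adjusted p = 0.0178). In this comparison limma called 0.95% of all genes (0.277% higher, 0.673% lower), against 1 of 36 members. All 5 WT_CAF libraries were above all 3 NPF, as in 5.13% of all genes, and so were all 8 CAF libraries (3.81%) and all CAF and tumor cell libraries together (2.06%). No other member was above or below NPF in that way, where the shares of all genes below were 6.05%, 4.73% and 2.69%.
The difference was 2.14 to 2.36 over 28 alternatives and was called in 23 of them, but with the index form as a term the estimate rests on WT_CAF 1 and 2, which share the absent index with NPF, and leaving out WT_CAF 3 to 5, a KO_CAF or a tumor cell library cannot change it. It was not called without NPF 2 (adjusted p = 0.073) or without WT_CAF 1 (2.14, adjusted p = 0.0635), where WT_CAF 2 is the single CAF library left and is assumed to vary like the other groups. Without WT_CAF 1 and without that term, an alternative added after the values were seen, it was 2.23 with an adjusted p of 0.000813. Hif1a (1.34, adjusted p = 0.0495) and Ndrg1 (2.11, adjusted p = 0.00972) were called higher too, with 518 of all genes higher beside 37. WT_CAF 3 to 5 have an index and NPF have none, so group and index form are mixed in these values. With the term, limma gave 0.40 for Hif1a (adjusted p = 0.641) and 0.98 for Ndrg1 (adjusted p = 0.498).
Of the other members, 3 had an unadjusted p under 0.05: Hk2 (1.57 ± 0.59, adjusted p = 0.209), Pfkm (0.92 ± 0.42, 0.287) and Adm (-3.26 ± 1.19, 0.198). The Adm value moved with WT_CAF 1, which held 1.03 FPKM. Leaving that library out gave -0.41 (adjusted p = 0.907), and -0.60 (adjusted p = 0.73) with the form term left out too. Leaving out WT_CAF 2 gave -6.11 (adjusted p = 0.00189), which sets WT_CAF 1 alone, the library with few fibroblast markers, against NPF and borrows its spread from other libraries, and 729 of all genes were then lower beside 90. NPF libraries held 100.1 to 202 FPKM of Adm. The acinar sum was above that of every CAF in all 3 NPF, as given above, and its part in these differences was not tested.

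The third comparison asked whether loss of Saa3 changed these genes. In KO_CAF against WT_CAF limma called 0 of the 36 members and 0.00748% of all genes (1 gene), and 0 members had an unadjusted p under 0.05 (125 of all genes did). That 1 gene was higher and 0 genes were called lower, so the deleted gene Saa3 was itself not called lower. Saa3 was at 892 to 4278 FPKM in 4 WT_CAF libraries, 7.24 FPKM in WT_CAF 1 and 0.434 to 1.85 FPKM in KO_CAF. A count of 0 members therefore does not show that these genes were unchanged. The members' median difference was -0.38, beside -0.01 for all genes, with 6 of 36 above 0, but it was -0.96 without KO_CAF 1 and 0.04 without KO_CAF 2. For Hif1a the difference was -0.12 with a 95% confidence interval of -0.89 to 0.65, for Ldha -0.50 (-1.68 to 0.67), for Slc16a1 -0.34 (-1.12 to 0.44) and for Car9 -0.11 (-2.63 to 2.40), so changes of a log2 unit or more in single genes lay within most intervals. No member's KO_CAF libraries lay all above or all below WT_CAF, as 0.464% and 0.733% of all genes did.
In KO_tumor against WT_tumor limma called 0 members and 0% of all genes, and 0 members had an unadjusted p under 0.05 (528 of all genes did). The median difference was 0.08, beside -0.02 for all genes. The intervals were -1.04 to 0.36 for Hif1a, -0.87 to 1.26 for Ldha and -0.79 to 3.78 for Car9. Pfkfb3 was above in all 3 KO_tumor libraries and Pfkm below, as were 1.36% and 2.25% of all genes, and neither was called (0.41 ± 0.35 and -0.42 ± 0.35).
The difference between the 2 knockout effects (tumor cells minus CAF) was called for 0 members and 0% of all genes, with 0 members and 185 of all genes at an unadjusted p under 0.05. Its median over members was 0.49, with 29 of 36 above 0 (80.6%, against 49.4% of all genes), and it moved from 1.12 without KO_CAF 1 to 0.09 without KO_CAF 2. The sample quality weights and all other settings tried gave 0 called members in each of these 3 comparisons.

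The neighbouring pathways were described from lists of other genes. Of 23 further genes of sugar metabolism that passed the filter, 6 were higher and 4 lower in tumor cells than in CAF, and these counts and those of the lists below stand beside 23% higher and 23% lower among all genes. The glycerol phosphate dehydrogenases Gpd1 (2.87 ± 0.51, adjusted p = 0.000548) and Gpd2 (1.86 ± 0.24, 5.63e-05), which shuttle glycolytic electrons, were among the higher. So were the fructose bisphosphatase Fbp2 (1.94 ± 0.66, adjusted p = 0.0278) and the liver pyruvate kinase Pklr (1.55 ± 0.34, 0.00246). Fbp2 was at 54.7 FPKM in WT_tumor 2 and at 0.474 to 8.20 FPKM in the other tumor cell libraries. Pklr was at 0.219 to 9.53 FPKM in tumor cells and at most 0.255 FPKM in CAF. The liver glycogen phosphorylase Pygl was lower (-3.74 ± 0.49, adjusted p = 6.03e-05). Of 30 further HIF targets, 5 were higher and 13 lower.
The lower HIF targets were led by genes that modify collagen: Lox, the lysyl oxidase that crosslinks it (-7.24 ± 0.79, adjusted p = 1.7e-05), Loxl2 (-3.86 ± 0.66, 0.000403) and the lysyl hydroxylases Plod2 (-3.70 ± 0.56, 0.000179) and Plod1 (-3.29 ± 0.42, 5.13e-05). Lox held 248 to 1146 FPKM in the CAF libraries other than WT_CAF 1 (34.8 FPKM), 498 to 850 FPKM in NPF and at most 17.5 FPKM in tumor cells. The higher targets were Tfrc, the transferrin receptor (1.90 ± 0.36, adjusted p = 0.000888), Stc1 (1.43 ± 0.53, 0.0404), the histone demethylase Kdm3a (0.94 ± 0.21, 0.00262), Cited2 (0.87 ± 0.21, 0.004) and Hilpda (0.84 ± 0.28, 0.0271).
Of 11 genes of oxygen sensing, Vhl, which recognises hydroxylated HIF, was lower (-1.25 ± 0.27, adjusted p = 0.00225), as was the HIF partner Arnt (-0.55 ± 0.20, 0.0382), and the asparaginyl hydroxylase Hif1an (0.48 ± 0.15, 0.0213) and Cul2 (0.41 ± 0.14, 0.0279) were higher. Of 26 genes of pyruvate entry and the TCA cycle, 5 were higher, Idh3b foremost (0.87 ± 0.17, adjusted p = 0.000955), and the mitochondrial pyruvate carrier Mpc1 was lower (-1.27 ± 0.39, 0.0169). Of 8 pentose phosphate genes, Tkt (1.29 ± 0.25, adjusted p = 0.00105) and Pgd (0.57 ± 0.20, 0.0337) were higher and H6pd lower (-2.30 ± 0.35, 0.000183). Against NPF limma called 0 genes of these 5 lists in WT_CAF, with an unadjusted p under 0.05 for 2, 5, 1, 2 and 2 genes in the order given. It also called 0 in either knockout comparison, with 0 genes of the 5 lists at that unadjusted level in CAF and 1, 0, 0, 2 and 1 in tumor cells.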

How the data were processed

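RNA from cells sorted out of fresh mouse tumors and pancreas was sequenced, per the labels' protocols, with an Illumina TruSeq RNA kit on a HiSeq2000. The deposited table gives FPKM per gene and library, computed by the authors. The submitters' processing notes name Cufflinks 2.2.1 with Cuffnorm, TopHat2 2.0.10 and Bowtie 1.0.0, SAMtools 0.1.19, FastQC, and the mouse build mm9 beside human builds, with no order, settings or annotation. FPKM keep no read counts, so depth per library is unknown and no count test was possible; summed FPKM were 396646 to 919859, and 10657 to 11670 genes reached 1 FPKM per library. The series' design text calls the libraries biological replicates. The limma p-values rest on a spread between libraries that is pooled over all 5 groups. The members' own spread differed between groups, with a median SD of 1.29 in KO_CAF and 0.47 in NPF.

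The 13369 genes that reached 1 FPKM in 3 libraries or more were fitted on log2(FPKM + 1) with limma 3.58.1 (R 4.3.3), empirical Bayes with trend, all 18 libraries, group and index form as terms, two-sided tests and Benjamini-Hochberg adjustment over all genes tested. A log2 difference of FPKM + 1 understates the change of low genes. With the form term, WT_CAF against NPF rests on WT_CAF 1 and 2, and comparisons of WT_CAF with tumor cells or KO_CAF on WT_CAF 3 to 5. Isoform ratios used exact permutation tests in Python 3.11.15, without the form term. The scripts were tested on simulated data. Promoters came from RefSeq, GRCm38.p6, a build other than that of the FPKM, and were matched by symbol.

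The 36 members, the further gene lists and the marker lists were chosen with earlier results of these data known. Values in single libraries are given for members called in a comparison and for both genes of each isoform pair, and ranges for the rest, except that Egln3 was added after its values were seen. From the further lists, at most the 5 largest called genes in each direction could be named. Alternatives covered the pseudocount, the filter, scaling, the form term, the libraries fitted, sample weights and each library left out. An item of the tumor genotype is not reported here.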

Additional observations from a re-analysis of the deposited data

Results flagged for a closer look

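Among the 4 or 5 libraries of WT_tumor and WT_CAF, 2 member values stood far from the rest of their group. Slc2a1 in WT_tumor 1 was 159.1 FPKM against 79.0 to 87.58 FPKM in the other WT_tumor libraries, a gap of 0.853 of the group's range on the log2 scale. KO_tumor 1 and KO_tumor 2, with 151 and 185 FPKM of Slc2a1, reached the same level. Ldhb in WT_CAF 1 was 1.851 FPKM against 64.63 to 214.3 FPKM in the other WT_CAF libraries, a gap of 0.725 of the range. WT_CAF 1 is the library described above, with few fibroblast marker transcripts and more Krt8, Krt18 and Krt19 than the other CAF. In all, 72 groups of member values were examined, and chance flags about 1 in 20 such groups.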

How the results depend on the processing

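No result changed direction while called. Beside the reported counts of called members, those for tumor cells against CAF were 3 higher with no filter on low values (3127 of all genes, beside 3071). Within the 6-base libraries they were 0 higher (1343 of all genes) and 2 lower, and with sample quality weights 10 higher (3735 of all genes). With WT_CAF 1 and the form term both left out, a choice added after the values were seen, they were 9 higher (2995 of all genes). Over single libraries left out they were 1 to 13 higher (2403 to 3275 of all genes) and 4 to 7 lower. For WT_tumor against WT_CAF they were 2 higher and 1 lower without the form term, 1 higher with weights, 2 higher without WT_CAF 1 and the term, 2 lower with no filter, and 0 lower with only the groups compared or only 6-base libraries; over left-out libraries, 0 to 1 higher and 0 to 5 lower. For KO_tumor against KO_CAF they were 0 higher with no filter, only the groups compared or only 6-base libraries, 2 higher with quantile normalization (2013 of all genes, beside 1741) and 11 higher with weights (3386 of all genes); 3 lower with only the groups compared, without WT_CAF 1 and WT_tumor 4 together or without WT_CAF 1 and the term, and 4 lower with weights (3247 of all genes, beside 2057); over left-out libraries, 0 to 12 higher and 1 to 3 lower. For WT_CAF against NPF they were 0 higher with only the groups compared, with weights or without WT_CAF 1 and WT_tumor 4, and 3 higher without WT_CAF 1 and the term; over left-out libraries, 0 to 2 higher and 0 to 1 lower. The number of isoform ratios called in WT was 0 with a pseudocount of 0.1 and 0 to 0 over left-out libraries, and stayed at 0 in KO. The cause of these shifts was not tested, except that left-out libraries and smaller sets give fewer samples. A count without that of all genes beside it, here or above, does not show a change particular to the members. Comparisons of knockout with WT stayed at 0 called members throughout. No paired analysis was possible because the replicate numbers follow the order of deposition and the labels used here do not say which libraries came from the same mouse. With the depth unknown, no limit from counting can be given for genes near 0 FPKM.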
